A study of Mus musculus with 4 samples.

Results

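The amino acid stress response was followed through 10 genes, Atf4, Asns, Chac1, Trib3, Sesn2, Phgdh, Psat1, Psph, Shmt2 and Mthfd2, among the 23282 rows of lung expression values. A row was a member when its gene symbol was one of these names. All 10 symbols were found once each, and all 10 passed the filter on low values, which asked for a normalized count averaging 4 or more and left 15164 rows. Sesn2 passed it with a mean of 5.76, through the libraries in which it was higher.

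The lungs came from male CDF1 mice, a hybrid laboratory strain, in 4 groups that crossed treadmill running with cancer. E(-)T(-) was the normal control, without exercise or tumor, and E(+)T(-) the normal exercise group, run on a treadmill at high intensity. E(-)T(+) was the cancer control and E(+)T(+) the cancer exercise group, and both had received a tail vein injection of CT26, a mouse line derived from a colorectal carcinoma, while no tumor cells went into the normal groups. The labels give postnatal day 28 and 10 mice for each group, but there was 1 lung library per group, and whether it held 1 mouse or a pool was not stated for the lung. For muscle, a single representative mouse per group was sequenced, and the study describes its lung analysis as similar. This day equals the age at purchase given in the methods, and the animals were killed only after the tumor and exercise period, so they were older at sampling. No difference between groups below therefore has a replicate check, and intervals cover counting error only. The lung in the cancer groups can hold CT26 cells, so mouse lung and mouse tumor transcripts cannot be told apart by species.

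Cells that run short of an amino acid, or that take other stresses, phosphorylate the initiation factor eIF2, which lowers protein synthesis overall and favours translation of the transcription factor ATF4. ATF4 binds C/EBP-ATF composite elements and induces genes for amino acid synthesis and uptake, for tRNA charging and for the folate cycle of the mitochondria. Because ATF4 is controlled largely at translation, its mRNA is an incomplete measure of its activity. Phgdh, Psat1 and Psph encode the successive enzymes that make serine from a glycolytic intermediate. Shmt2 and Mthfd2 encode mitochondrial enzymes that take a single-carbon unit from serine and oxidise it on folate, which feeds nucleotide synthesis, and they are high in many tumors and dividing cells.

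The composite element bears on the members directly, and its core, TGATGNAA, was searched on both strands in the 250 bases before the RefSeq start of each gene (GRCm38.p6). A window was found for all 10 members, and Chac1 and Asns held a match. Over all 27025 symbols of the table, 3.91% held one. The matches are shown with 11 bases on either side, 5′ to 3′ along the gene, and capitals mark the matched 8 bases.
Chac1: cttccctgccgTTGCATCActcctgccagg
Asns: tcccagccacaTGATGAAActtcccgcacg
The Chac1 stretch lies at chr2:119351038-119351067 on the plus strand. Its match is on the strand opposite to the gene, 193 to 186 bases before the start, outside any GENCODE M21 exon. The Asns stretch lies at chr6:7693214-7693243 on the minus strand, with the match on the gene strand 23 to 16 bases before the RefSeq start. GENCODE places an untranslated exon of a longer Asns model there. The cAMP response element TGACGTCA was in the window of 0 of the 10 members and of 1.77% of all symbols. A match in these letters describes the sequence and not a bound site, and the other members lack only these letters in this window.

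The reads assigned to genes ranged from 9354530 to 13367935 over the libraries, and 3 reads correspond to 0.224 to 0.321 CPM. Whole reads were recovered from the deposited log2 values, as described under processing, and the relative effective library sizes were 1.1768 for the normal control, 1.0886 for normal exercise, 0.9126 for the cancer control and 0.8554 for cancer exercise. All 13 lung epithelial markers, Sftpc and Scgb1a1 among them, had reads in every library. They took 6.14% of the reads in the normal control, 6.97% in normal exercise, 1.5% in the cancer control and 4.63% in cancer exercise. Hemoglobin transcripts took 14.3%, 14.2%, 1.43% and 31.4% in the same order. The cancer control library thus stood apart. Hbb-bs and Hbb-b1 had similar reads in every library (285642 and 277447 in the normal control), as did Hbb-bt and Hbb-b2. The same reads may be counted under both symbols of a pair, which would raise the hemoglobin shares. Both pairs are also in the erythroid marker list. The normal exercise library also held reads of 9 of 9 genes that had none in the normal control and at least 500 normalized counts in the cancer control, at a median of 1.47% of the cancer control level. Taking that share out moved no member across the 2-fold limit, and its larger effects are given with the comparisons. Fewer cells of a type and less RNA per cell cannot be told apart in bulk tissue.

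The serine synthesis enzymes separated the cancer control library from the others. Phgdh (chr3:98313170-98339990, minus strand), which catalyses the first step, had 37 reads in the normal control, 32 in normal exercise, 303 in the cancer control and 87 in cancer exercise. Psat1 (chr19:15904678-15947337, minus strand), the aminotransferase of the next step, had 107, 104, 1335 and 403 reads in the same order. Psph (chr5:129765558-129787449, minus strand), the phosphatase that releases serine, had 77, 101, 221 and 91 reads. For each of these genes the cancer control was the highest library and cancer exercise the next. The intervals of neighbouring libraries did not include equality, except the normal control against normal exercise for Phgdh and Psat1, and normal exercise against cancer exercise for Psph.

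**Figure D1:**
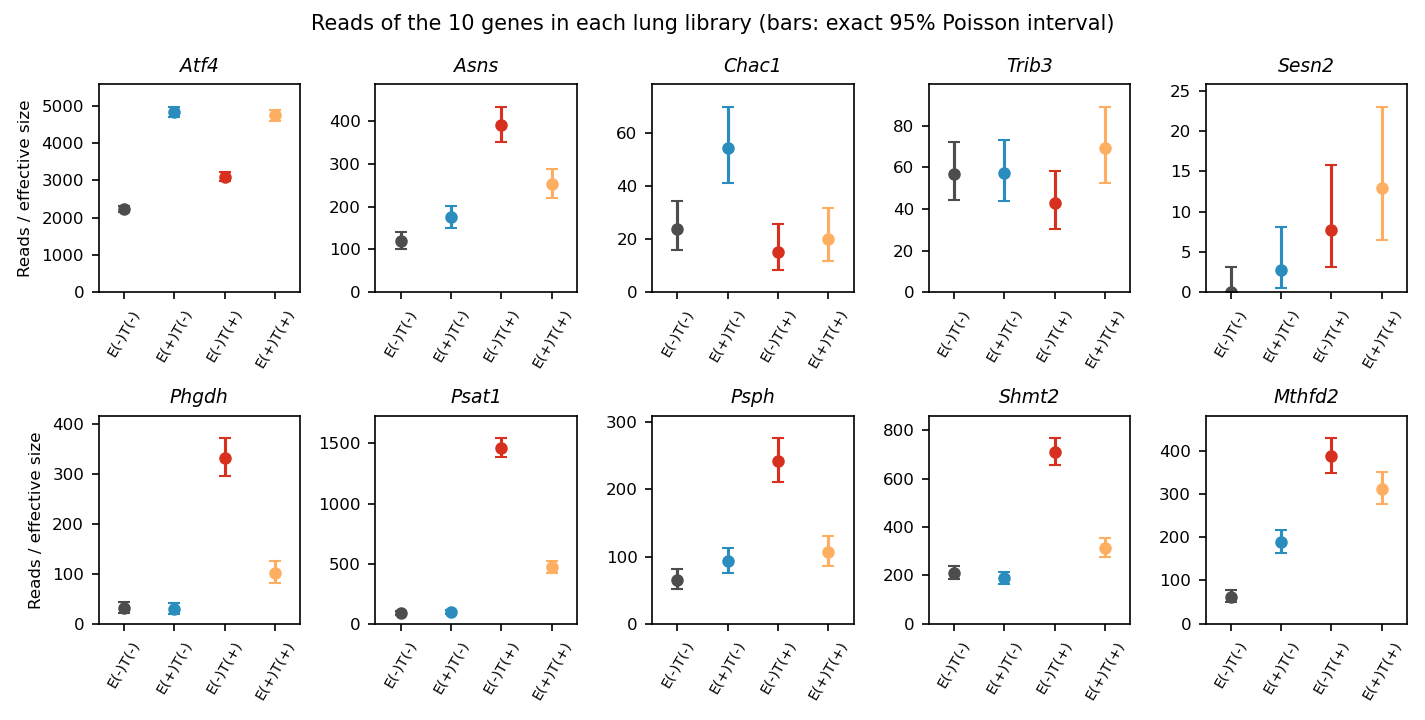
Reads divided by the relative effective library size (vertical axis, linear from 0) for each of the 10 genes in the 4 lung libraries (horizontal axis, 1 library per group). Points are the single libraries and bars are exact 95% Poisson intervals of the reads. Phgdh, Psat1, Psph, Shmt2, Mthfd2 and Asns are highest in E(-)T(+), whereas Atf4 and Chac1 are highest in E(+)T(-).

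The mitochondrial folate enzymes were also highest in the cancer control and next in cancer exercise, and they differed in the order of the tumor-free libraries. Shmt2 (chr10:127517123-127522444, minus strand), a serine hydroxymethyltransferase, had 248 reads in the normal control, 205 in normal exercise, 648 in the cancer control and 269 in cancer exercise. Mthfd2 (chr6:83305691-83325908, minus strand), a methylenetetrahydrofolate dehydrogenase and cyclohydrolase, had 74, 205, 353 and 267 reads. Shmt2 was thus at its lowest in normal exercise, within counting error of the normal control, while Mthfd2 stood lowest in the normal control with all other libraries above it. All 3 intervals between neighbouring Mthfd2 libraries lay above 0.

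Atf4 followed another order, while Asns had that of Psat1, Psph and Mthfd2. Atf4 (chr15:80255184-80257541, plus strand) had 2634 reads in the normal control, 5276 in normal exercise, 2830 in the cancer control and 4060 in cancer exercise. On the deposited scaling, the exercised libraries were within counting error of each other (log2 read ratio 0.03 for normal exercise over cancer exercise, interval -0.03 to 0.09), and both stood above the resting ones. By library totals alone the log2 level was 12.276 in normal exercise, 11.833 in cancer exercise and 11.827 in the cancer control, so cancer exercise then lay with the cancer control. By totals without hemoglobin these levels were 12.244, 12.125 and 11.596, so cancer exercise stayed above the cancer control. Asns (chr6:7675169-7693254, minus strand), asparagine synthetase, had 140, 190, 357 and 216 reads. Its highest library was the cancer control, and every neighbouring pair differed beyond counting error.

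Chac1 (chr2:119351229-119354381, plus strand), which degrades glutathione, had 28 reads in the normal control, 59 in normal exercise, 14 in the cancer control and 17 in cancer exercise. In order of level, only normal exercise stood apart from its neighbour. Trib3 (chr2:152337422-152344032, minus strand), a pseudokinase that binds ATF4 and damps its output, had 67, 62, 39 and 59 reads, and no neighbouring pair differed beyond counting error. Sesn2 (chr4:132492032-132510501, minus strand), a leucine sensor that restrains mTORC1, had 0, 3, 7 and 11 reads. Its count of 0 in the normal control allows about 3 reads, the floor used here, and 3.69 by the exact interval, and no neighbouring pair of Sesn2 libraries could be distinguished at this depth.

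The tumor effect without exercise, the cancer control over the normal control, asked what the cancer changed in resting mice and held the largest differences of the set. Differences are of the deposited log2 values, with the exact interval of the log2 read ratio, and a gene was past the limit at 2-fold or more. Of the 10 members, 7 were higher by that limit, against 20.6% of all filtered genes, and 0 were lower, against 25.7% (46.2% in either direction). Without Sesn2, whose few reads passed the filter only through its higher libraries, 6 of 9 were higher and 0 lower. The median of the members was 1.81 (1.75 without Sesn2) and that of all filtered genes -0.03. Psat1 was higher by 4.00 (3.72 to 4.31), a fold of 15.9, and Phgdh by 3.36 (2.91 to 3.93), a fold of 10.3. Psph was higher by 1.87 (1.51 to 2.28). In the folate enzymes the difference was 2.60 for Mthfd2 (2.26 to 3.0) and 1.75 for Shmt2 (1.54 to 1.97).

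Asns was higher by 1.71 in the same comparison (1.43 to 2.01). Sesn2 had no read in the normal control and was at least 3.01-fold higher against a floor of 3 reads in that library, with its 7 reads taken as they stand. The exact interval of the log2 read ratio, which carries the counting error of those reads too, starts lower, at 0.89. Atf4 itself differed by 0.47 (0.39 to 0.55), within the limit. It left that interval at 0.58 by library totals alone and at 0.38 by totals without hemoglobin. Chac1 and Trib3 were on the lower side, at -0.59 and -0.40, with intervals that included 0 (-1.67 to 0.34 and -1.02 to 0.18). The biosynthetic enzymes were therefore all past the limit in this pair of libraries, and Atf4, Chac1 and Trib3 were not.

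Cell division markers moved with these enzymes. The summed normalized count of the 19 markers, Mki67 and Top2a among them, was 1322 in the normal control, 1846 in normal exercise, 18046 in the cancer control and 6032 in cancer exercise, the order of Psat1, and 19 of 19 were 2-fold or more higher in the cancer control than in the normal control. Bub1 was at 0 in the normal control. In the same comparison 12 of 13 lung epithelial and 6 of 6 endothelial markers were lower by the limit, and 11 of 13 neutrophil markers were higher (summed count 4246 in the normal control and 12289 in the cancer control). Also lower by the limit were 7 of 7 B cell, 7 of 8 T cell and 12 of 14 erythroid markers. Of 8 macrophage markers 2 were higher and 1 lower. The summed count of the epithelial markers was 679204, 818742, 154184 and 724125 in the 4 libraries, in the order used above, and that of the endothelial markers was 20254, 19867, 2268 and 16545. Scgb1a1 alone had 504275 of the 799278 epithelial marker reads in the normal control and 450632 of 619383 in cancer exercise. The epithelial sum thus largely follows that gene. No epithelial or endothelial marker was at 0 in any library. The part of dividing cells and of cell composition in the member differences was not tested.

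**Figure D2:**
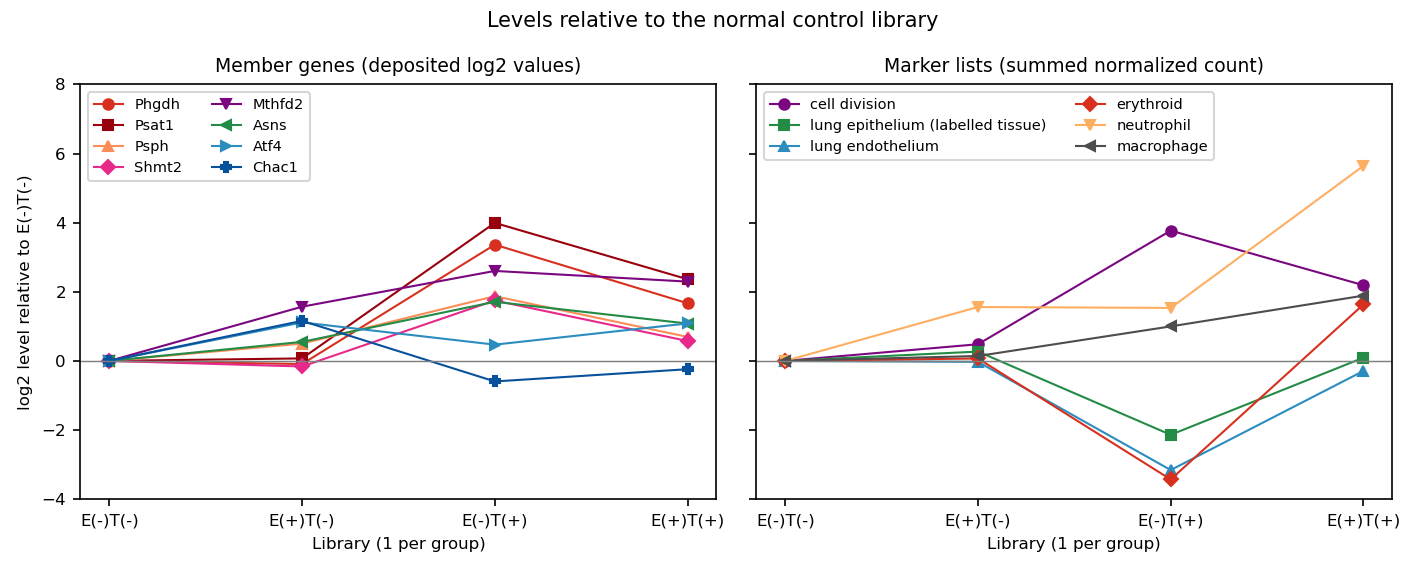
Log2 level relative to the E(-)T(-) library (vertical axis) in each library (horizontal axis), for 8 member genes as deposited log2 values on the left and for the summed normalized counts of 6 marker lists on the right. Lines join the values of a gene or list. Psat1 stands at 4.00 and the cell division list at 3.77 in E(-)T(+), where the epithelial and endothelial lists stand at -2.14 and -3.16.

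The exercise effect with tumor, cancer exercise over the cancer control, asked what running changed in cancer-bearing mice. The serine enzymes and Shmt2 were lower in cancer exercise, and they were the members past the limit. Phgdh differed by -1.70 (-2.07 to -1.36), Psat1 by -1.63 (-1.80 to -1.47), Psph by -1.18 (-1.56 to -0.83) and Shmt2 by -1.17 (-1.39 to -0.97). That is 4 of 10 members lower against 17.7% of all filtered genes, and 0 higher against 24.3%. Counted in either direction, 4 of 10 is close to the 42.0% of all filtered genes. The other biosynthetic members were lower within the limit, Asns by -0.63 (-0.88 to -0.38) and Mthfd2 by -0.31 (-0.54 to -0.08).

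Atf4 and Trib3 were on the higher side in cancer exercise, by 0.61 (0.54 to 0.68) and 0.68 (0.08 to 1.31). Chac1 differed by 0.35 and Sesn2 by 0.66, and the intervals of both included 0. Scaling mattered here: with library totals as the only scaling, the median over all filtered genes was -0.59, Atf4 came to 0.01, Trib3 to 0.08 and Asns passed the limit at -1.24. The same scaling took Psat1 to -2.24, Phgdh to -2.30, Psph and Shmt2 to -1.78 and Mthfd2 to -0.92, each under its interval. Of all filtered genes past the limit, 57.8% were higher on the deposited values and 31.6% with that scaling. By totals without hemoglobin the median was -0.08, and 54.4% of the calls were higher. Atf4 then came to 0.53, just under its interval, Trib3 to 0.59 and Asns to -0.71, within the limit. Psat1 came to -1.72 and Phgdh to -1.78, each within its interval. Of the cell division markers 17 of 19 were lower by the limit in cancer exercise, while 11 of 13 epithelial markers, 12 of 13 neutrophil markers and 13 of 14 erythroid markers were higher. The remaining neutrophil marker, Ltf, was lower, at -1.40. Also higher by the limit were 6 of 6 endothelial, 8 of 8 T cell and 6 of 7 B cell markers, and 1 B cell marker was lower. The part of these cells in the member differences was not tested.

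In the exercise effect without tumor, normal exercise over the normal control, which asked what running changed in healthy mice, Phgdh and Psat1 were within counting error of equality and Atf4 was not. Atf4 was higher by 1.11 (1.05 to 1.18), Chac1 by 1.16 (0.52 to 1.89) and Mthfd2 by 1.57 (1.19 to 1.99). By library totals, with or without hemoglobin, Atf4 came to 1.03, under its interval and barely past the limit. Sesn2 also passed the limit on the deposited values, but with 0 and 3 reads both libraries were at or under the floor and no fold is given. Without Sesn2, 3 of 9 members were higher by the limit against 5.28% of all filtered genes, and 0 were lower against 4.70% (9.98% in either direction), and with it 4 of 10 were higher.

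The remaining members stayed within the limit in healthy mice. Asns differed by 0.55 (0.23 to 0.88) and Psph by 0.50 (0.06 to 0.95). Shmt2 was at -0.16, Phgdh at -0.09, Psat1 at 0.07 and Trib3 at 0.00, each with an interval that included 0. The sign of Psat1 was not fixed: it came to -0.01 by library totals alone, to -0.02 by totals without hemoglobin and to -0.29 once the share of the cancer control was taken out of normal exercise. With that share taken out, Phgdh came to -0.34, Shmt2 to -0.24 and Psph to 0.44, while Atf4 was at 1.10, Chac1 at 1.15 and Mthfd2 at 1.53. The summed neutrophil markers were 4246 in the normal control and 12515 in normal exercise, with Elane at 0 in both, and 8 of 13 were higher by the limit and 1 was lower. Of the cell division markers 5 of 19 were higher and 0 lower (median 0.48). The part of either list in the member differences was not tested.

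The tumor effect with exercise, cancer exercise over normal exercise, asked what the cancer changed in running mice. Psat1 was higher by 2.29 (1.99 to 2.63) and Phgdh by 1.76 (1.19 to 2.42), and Sesn2, on 3 and 11 reads, had a log2 read ratio of 2.22 (0.30 to 4.70). Chac1 was lower by the limit, at -1.40 (-2.32 to -0.65). These are 3 of 10 higher against 14.9% of all filtered genes and 1 of 10 lower against 13.0% (27.9% in either direction). Without Sesn2, whose lower library was at the floor, 2 of 9 were higher and 1 lower. Shmt2 at 0.74, Mthfd2 at 0.73 and Asns at 0.53 were higher within the limit, with intervals above 0. Psph at 0.20, Trib3 at 0.27 and Atf4 at -0.03 were within counting error, and Psph and Trib3 changed sign by library totals alone, to -0.21 and -0.13. Atf4 left its interval with other scalings, at -0.44 by library totals alone and -0.12 by totals without hemoglobin. Library totals alone also took Psat1 to 1.88, Shmt2 to 0.33, Mthfd2 to 0.31 and Asns to 0.12, each under its interval. By totals without hemoglobin these genes came to 2.20, 0.65, 0.64 and 0.44, each within its interval. Higher genes were 53.5% of all calls in this comparison, 28.2% by totals alone and 47.4% by totals without hemoglobin. With the cancer control share taken out of normal exercise, Psat1 came to 2.65, Phgdh to 2.01, Shmt2 to 0.82 and Asns to 0.58. In the same comparison 15 of 19 cell division, 13 of 13 neutrophil, 13 of 14 erythroid and 4 of 8 macrophage markers were higher by the limit. Of the macrophage markers 1 was lower. Also lower by the limit were 3 of 7 B cell, 3 of 8 T cell and 2 of 13 epithelial markers, with 0 higher in each of these lists. Of 6 endothelial markers 1 was higher and 1 lower. The neutrophil markers had a summed normalized count of 212521 in cancer exercise. The part of these cells was not tested.

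**Figure D3:**
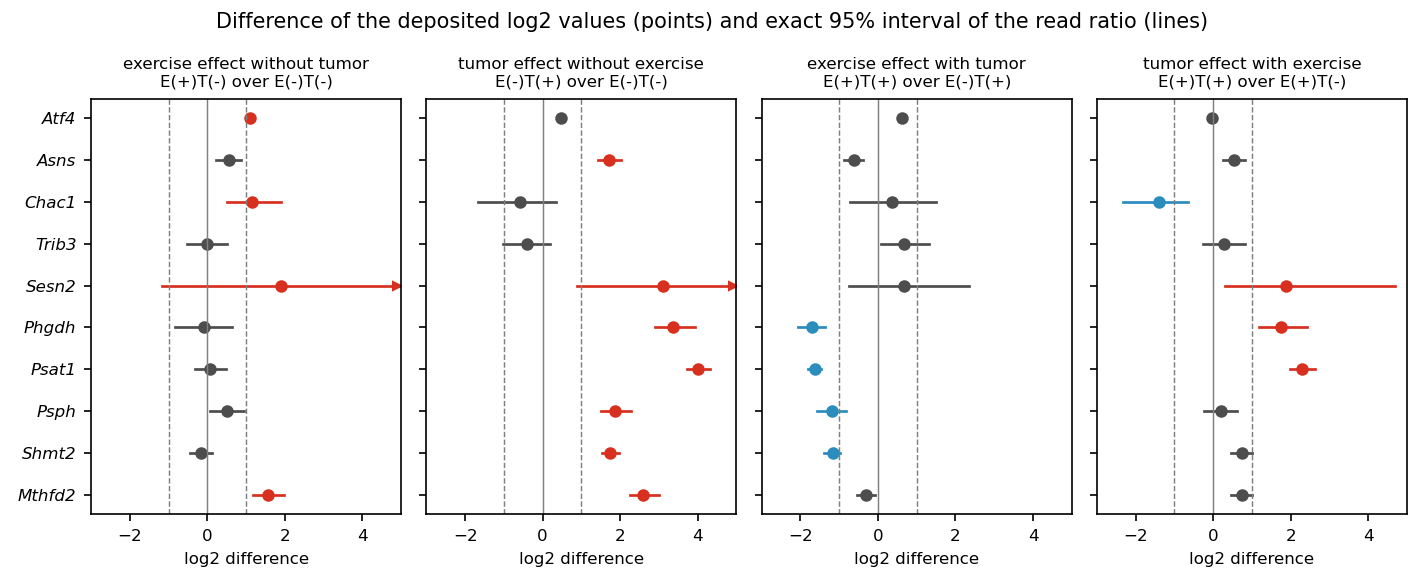
Difference of the deposited log2 values (horizontal axis, points) for the 10 genes in the 4 comparisons, with the exact 95% interval of the log2 read ratio as a line. Dashed lines mark 2-fold, red points lie above it and blue points below it, and arrows mark intervals without an upper end. In E(-)T(+) over E(-)T(-) 7 genes lie above the upper dashed line, and in E(+)T(+) over E(-)T(+) 4 lie below the lower one.

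Side by side, the tumor effects were 4.00 in resting and 2.29 in running mice for Psat1, 3.36 and 1.76 for Phgdh, 2.60 and 0.73 for Mthfd2, 1.87 and 0.20 for Psph, 1.75 and 0.74 for Shmt2 and 1.71 and 0.53 for Asns. They were 0.47 and -0.03 for Atf4, -0.40 and 0.27 for Trib3 and -0.59 and -1.40 for Chac1, which was past the limit in running mice only. They came from separate pairs of libraries, and with 1 library per group the differences between them were not tested. The exercise effects for Atf4 were 1.11 without and 0.61 with tumor, again from separate pairs.

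An additive fit with limma over all 4 libraries, with exercise and tumor as factors, left 1 residual degree of freedom and took their interaction as the spread. The eBayes step of limma then drew the spread of each gene toward that of genes at a similar level. Its SE and p-values therefore rest in part on other genes and do not measure variation between animals. For tumor, 1 of 10 members was called at an adjusted p under 0.05, against 3.26% of the filtered genes: Psat1, with an effect of 3.14 ± 0.54 (SE) and a limma adjusted p of 0.0082, higher in 2 of 2 tumor libraries than in their controls. The range of that adjusted p over the alternatives was 3.43e-07 to 0.0187. Phgdh had an effect of 2.56 ± 0.73 and a limma adjusted p of 0.0664 (0.015 to 0.0867 over the alternatives), and Mthfd2 one of 1.66 ± 0.58 and an adjusted p of 0.137 (0.0467 to 0.228). At an unadjusted p under 0.05 there were 4 members, against 17.8% of the filtered genes. For exercise the limma fit called 0 members and 0 of 15164 genes, with 0 members and 753 genes (4.97%) at an unadjusted p under 0.05. The exercise effects of Phgdh and Atf4 were -0.89 ± 0.73 and 0.86 ± 0.50.

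Relatives of the members were described in the same way. Shmt1, the cytosolic counterpart of Shmt2, had 17 reads in the normal control, 30 in normal exercise, 168 in the cancer control and 62 in cancer exercise, a tumor effect without exercise of 3.59 (2.95 to 4.49). Mthfd1l, the mitochondrial formyltetrahydrofolate synthetase that acts after Mthfd2, had 177, 204, 1672 and 486 reads and a tumor effect of 3.60 (3.38 to 3.84). Mthfd2l, a second mitochondrial dehydrogenase of this step, had 15, 36, 58 and 26 reads. For Shmt1, Mthfd1l and Mthfd2l, the cancer control was again the highest library. Aldh1l2, which oxidises the folate-bound formyl group in mitochondria, had 0, 5, 29 and 19 reads.

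Chac2, a relative of Chac1, had 18 reads in the normal control, 17 in normal exercise, 38 in the cancer control and 5 in cancer exercise, so that its highest library was the one with the fewest Chac1 reads. Trib1, a relative of Trib3, had 692, 958, 1131 and 3024 reads, highest in cancer exercise, and Trib2 had 1758, 1779, 1085 and 1094. Sesn1 was at 0.96 (0.74 to 1.19) in the tumor effect without exercise, and Sesn3 at 0.14 (-0.38 to 0.66).

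Among the stress factors that act beside ATF4, Ddit3, which encodes CHOP, had 675 reads in the normal control, 1269 in normal exercise, 419 in the cancer control and 451 in cancer exercise. Its exercise effect without tumor was 1.02 (0.89 to 1.16), and normal exercise was its highest library, as for Chac1. Atf3, another factor of the response, had 66, 172, 55 and 627 reads, and its exercise effect was 1.48 (1.08 to 1.93) without and 3.58 (3.21 to 4.03) with tumor. Slc7a11, the cystine importer, had 21, 44, 54 and 99 reads. Atf3 and Slc7a11 were thus highest in cancer exercise. On the deposited scaling the only members highest there were Trib3 and Sesn2, and neither rank was beyond counting error. By library totals alone the log2 level of Trib3 was 5.973 in the normal control and 5.755 in cancer exercise. By totals without hemoglobin it was 5.944 and 6.042.

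Other genes of the pathway were described in lists, to be read against the shares of all filtered genes. With tumor at rest 20.6% of all genes were higher and 25.7% lower, and with exercise in tumor-bearing mice 24.3% and 17.7%. In healthy mice 5.28% were higher and 4.70% lower with exercise, and in running mice 14.9% and 13.0% with tumor. Of 16 genes of the folate cycle and glycine cleavage, 10 were higher and 2 lower by the limit with tumor at rest (median 2.19). With exercise in tumor-bearing mice 9 were lower and 1 higher, and the median was -1.10. Gldc was among the 10 and the 9, and its reads were mainly in the cancer control. It had 7 in the normal control, 2 in normal exercise, 31 in the cancer control and 2 in cancer exercise. Aldh1l2 was among the 10, with no read in the normal control. Among genes of the list averaging 50 or more normalized counts, Mat2a, which makes S-adenosylmethionine, was lowest with tumor at rest, at -1.13. In healthy mice 2 were higher and 1 lower after exercise, and in running mice 4 were higher and 1 lower with tumor. The healthy-mouse counts rest partly on few reads. Aldh1l2, among the 2 higher, had 0 and 5 reads with an interval that started at -0.01. The 1 lower was Gldc, with 7 and 2 reads. Aldh1l2 was also among the 4 in running mice, with 5 reads in normal exercise and 19 in cancer exercise.

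The cytosolic aminoacyl-tRNA synthetases attach amino acids to their tRNAs. With tumor at rest 9 of 20 were higher and 1 lower (median 0.93), led by Vars at 2.48 (182 to 790 reads), while Wars was lower, at -1.65 (860 to 212 reads). With exercise in tumor-bearing mice 5 were lower and 1 higher (median -0.65), with Vars at -1.83 and Wars at 1.36. Counted in either direction, 10 of 20 with tumor at rest is near the 46.2% of all genes. Of the 20, 0 passed the limit in healthy mice and 0 in running mice with tumor.

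Of 10 amino acid transporters, 4 were higher and 2 lower with tumor at rest (median 0.38). Slc7a5, the large neutral amino acid transporter, had 30 reads in the normal control, 622 in the cancer control and 107 in cancer exercise, a tumor effect at rest of 4.69 (4.21 to 5.32). Slc6a9, a glycine transporter, had 392 reads in the normal control and 107 in the cancer control. In tumor-bearing mice 3 were higher and 2 lower with exercise (median 0.53), in healthy mice 2 and 0 (0.30) and in running mice with tumor 3 and 0 (0.46). Slc43a1 was among the 3 higher with exercise in tumor-bearing mice, on 3 and 12 reads. It was also among the 2 in healthy mice, on 9 and 18 reads. Of 14 genes for the synthesis of other amino acids, 4 were higher and 4 lower with tumor at rest (median -0.02), with Got1 at 1.99 and Gpt at -3.34. The other comparisons of this list had 1 higher and 0 lower in healthy mice, 3 and 2 with exercise in tumor-bearing mice and 5 and 0 with tumor in running mice. The 1 in healthy mice was Bcat1, on 1 read in the normal control and 4 in normal exercise, too few for a fold. Its other reads were 102 in the cancer control and 23 in cancer exercise. With tumor at rest, the 6 transporters and 8 synthesis genes past the limit in either direction are not far from the 46.2% of all genes.

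**Figure D4:**
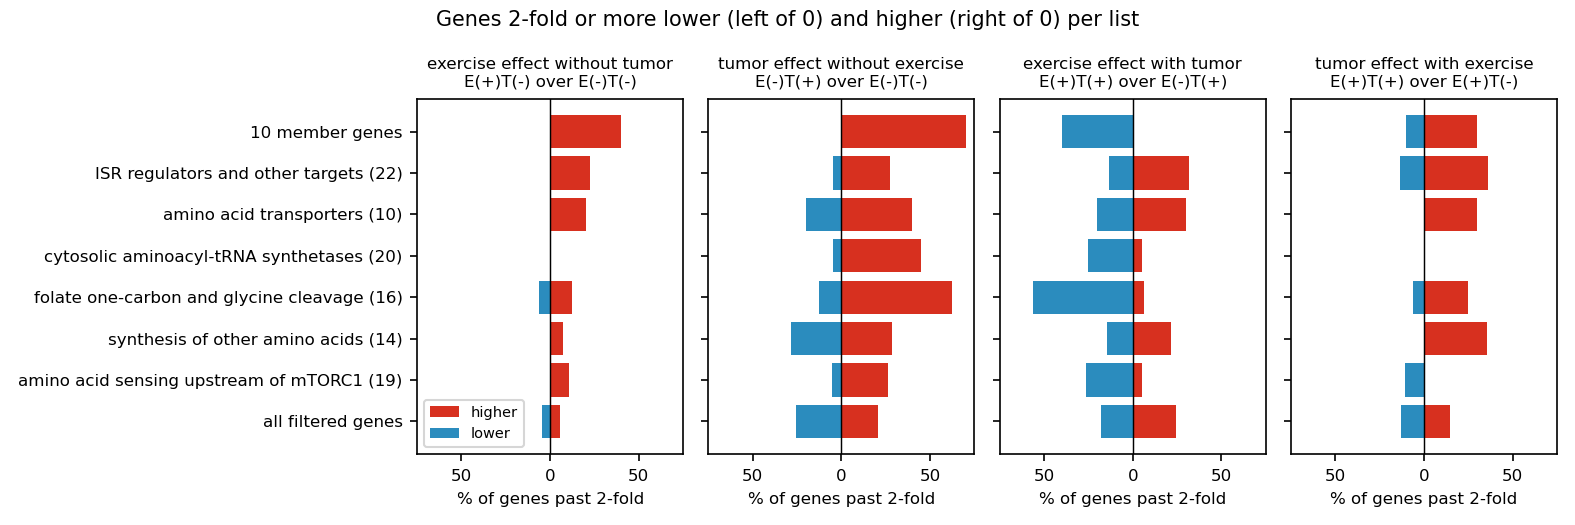
Percent of the genes of each list that were 2-fold or more higher (red, right of 0) or lower (blue, left of 0) in each comparison, with the number of genes past the filter in brackets and all filtered genes in the bottom row. The folate list has 10 of 16 genes higher in E(-)T(+) over E(-)T(-) and 9 of 16 lower in E(+)T(+) over E(-)T(+).

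Of 22 regulators and other targets of the response, 6 were higher and 1 lower with tumor at rest (median 0.18), from Eif4ebp1, a translation repressor, at 3.03 to Vegfa at -2.43. In healthy mice 5 were higher and 0 lower after exercise (median 0.24), with Ddit4, an mTORC1 inhibitor, at 1.54 (507 to 1368 reads). With exercise in tumor-bearing mice 7 were higher and 3 lower (median -0.02), with the cytokine Gdf15 at 4.03 (24 to 381 reads) and Vldlr at -2.12. With tumor in running mice 8 were higher and 3 lower (median 0.26), with Gdf15 at 2.75 and Cebpg at -1.80. The 6 of 22 higher with tumor at rest and the 7 of 22 higher with exercise in tumor-bearing mice are near the 20.6% and 24.3% of all genes. Of the eIF2 kinases, Eif2ak1, Eif2ak2, Eif2ak3 and Eif2ak4, 0 passed the limit in any of the comparisons.

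Of 19 genes that sense amino acids upstream of mTORC1 or belong to it, 5 were higher and 1 lower with tumor at rest (median 0.14), with Mtor at 2.02 (261 to 822 reads). With exercise in tumor-bearing mice 5 were lower and 1 higher (median -0.71), with Mtor at -1.85. In healthy mice 2 were higher and 0 lower (median -0.13), and in running mice 0 were higher and 2 lower with tumor (median -0.08). Rragb was among the 2 in healthy mice, on 4 and 9 reads. It was also the only gene higher with exercise in tumor-bearing mice, on 2 and 9 reads. These are few reads, and no fold is given. The 5 of 19 higher with tumor at rest and the 5 of 19 lower with exercise in tumor-bearing mice are near the 20.6% and 17.7% of all genes. All filtered genes had medians between -0.03 and 0.01 in the same comparisons.

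The genes nearest in pattern were sought among 11194 genes averaging 50 or more normalized counts, by the root mean square difference of centred log2 values over the 4 libraries. Closest to the median profile of the members were Gcat at 0.075, Cyp51 at 0.088 and Nup62 at 0.098. Gcat was also nearest to Asns, at 0.023, Uck2 to Psat1 at 0.049, Folr2 to Phgdh at 0.012 and D3Ertd751e to Chac1 at 0.083. With 4 libraries such distances only describe these libraries.

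Overlapping annotation was checked for the members on GRCm38 (mm10) with GENCODE M21, since the use of strand in counting was not stated. Shmt2 shares its last 32 bases with Ndufa4l2 on the opposite strand, at the end that a 3′ library reads. Ndufa4l2 had 209, 139, 43 and 75 reads in the normal control, normal exercise, the cancer control and cancer exercise, lowest where Shmt2 was highest. Psph overlaps Cct6a by 452 bases away from its 3′ end, and Cct6a had 1341, 1596, 3373 and 1400 reads. Psat1, Mthfd2 and Sesn2 hold a gene model inside them that was not analysed here. Reads of overlapping genes on these stretches cannot be told apart.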

How the data were processed

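Libraries were made from transcript 3′ ends (QuantSeq). The authors aligned reads with Bowtie2, counted them per gene with bedtools and used edgeR's quantile normalization; the submitters' processing notes name mm10, and versions, annotation and strand use are not given in the sources used here. The deposited values, in log2, equal log2(normalized count + 1) at 3 decimals. Whole reads were recovered by inverting a negative binomial quantile adjustment, with 4 relative library sizes and a dispersion of 0.372 fitted to the values. Recovered reads gave 100% of the values within 0.001 and 99.51% at all 3 decimals; the rounding leaves high counts approximate, which is why totals can be off by a few reads. The recovery and the limma step were tested on simulated data. The scaling factors implied were 1.086, 1.023, 1.172 and 0.768 for the libraries in the order normal control, normal exercise, then cancer control, then cancer exercise.

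Libraries were compared by subtracting deposited log2 values, which understates changes of low genes, and genes averaging 4 or more normalized counts were called at 2-fold. Read ratios carry exact (Clopper-Pearson) 95% intervals, scaled by effective size; these cover counting error only, since PCR copies were not told apart by molecular identifiers. The additive fit used limma 3.58.1 in R 4.3.3 with Benjamini-Hochberg adjustment over the 15164 rows; other steps used Python 3.11.15 with scipy 1.17.1. Alternatives were library totals alone, totals without hemoglobin genes, median-of-ratios size factors, a pseudocount of 4, other filters and removal of the E(-)T(+) share from E(+)T(-). Other genes were named by rule: the largest rise and fall of each list in a comparison among genes averaging 50 or more normalized counts, a fixed set of relatives and partners, and the nearest patterns. The eIF2 kinases, Ltf, Bcat1, Gldc, Rragb, Slc43a1, the paired Hbb genes and the overlapping genes were named beside it, after their values were seen. The members and lists were chosen with earlier results of these data known. Marker lists of B cells, T cells, erythroid cells and macrophages were also summed; relative to E(-)T(-) they stood at -4.86, -2.67, -3.43 and 1.00 (log2) in E(-)T(+) and at -1.76, -0.27, 1.63 and 1.89 in E(+)T(+). Sequences and promoter windows are from RefSeq on GRCm38.p6.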

Additional observations from a re-analysis of the deposited data

How the results depend on the processing

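Of the 19 member differences past 2-fold, run under 84 alternatives in all, the direction held in 84 and the limit in 83; the exception was Sesn2 in the exercise effect without tumor, at 0.75 with a pseudocount of 4. Asns, within the limit in the exercise effect with tumor, passed it by library totals alone. With the filter raised to an average of 50 normalized counts, the members past the limit were 2 in the exercise effect without tumor and 2 in the tumor effect with exercise, because Chac1 and Sesn2 were then left out. In the additive limma fit the members called for tumor were 2 by library totals alone, 2 with a pseudocount of 4 and 3 without a filter; the cause was not tested. Over all genes that fit called 495 for tumor, 827 by library totals alone, 885 with a pseudocount of 4, 1284 without a filter and 310 with median-of-ratios size factors, and for exercise 0, 7, 5, 58 and 0 in the same order. The tumor calls were 286 higher and 209 lower, against 349 and 478 by library totals alone. Library totals alone moved the median over all filtered genes to -0.41 in the tumor effect with exercise, against -0.09 by totals without hemoglobin genes. With library totals alone Chac1 changed sign in the exercise effect with tumor, to -0.22, against 0.27 by totals without hemoglobin genes. Chac1, Trib3 and Sesn2 rest on at most 67 reads in a library, so small differences were not detectable. The counts without Sesn2 were added after seeing the data. No paired analysis was possible because each group has 1 library. No replicate could be left out.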
